A study of Mus musculus with 14 samples.

Results

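Genes of the proteasome, the protease complex that degrades ubiquitin-tagged proteins, were followed in the liver of sleep-deprived and control mice. Members were all genes on the array whose symbol starts with Psm, a letter from a to g and a digit, read from probe sets that carry 1 gene symbol in the platform's annotation. The brightest probe set over all 14 arrays stood for a gene. This gave 49 genes on 52 probe sets, of 22180 genes in all. The study dealt with glucose intolerance and hepatic fat after 1 period of 6 h without sleep. Every sample is liver of a male of the inbred C57BL/6J strain. The titles place 7 liver samples in a sleep-deprived group (samples 1, 2, 3, 5, 6, 10 and 13) and 7 in a control group (samples 4, 7, 8, 9, 11, 12 and 14), and the labels give no genotype, agent, age, time of day or feeding state for either. They also leave out which way of disturbing sleep came before these arrays and whether each sample is a separate animal, so that p-values measure the spread between these samples.

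The proteasome has a barrel-shaped core of stacked rings. Alpha subunits form the outer rings, which gate the entry, and beta subunits form the inner rings, of which Psmb5, Psmb6 and Psmb7 carry the constitutive catalytic sites. The regulatory particle caps the core, binds ubiquitin chains, removes them and unfolds the substrate with a ring of ATPases. Interferon-gamma induces the catalytic subunits Psmb8, Psmb9 and Psmb10, which take the places of Psmb5, Psmb6 and Psmb7 in newly built particles called immunoproteasomes. These are abundant in immune cells, and the peptides they cut are loaded onto MHC class I molecules.

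The induced catalytic subunits fell after sleep deprivation, while 2 genes linked to the regulatory particle, Psmd9 and Psmd4, rose. Values are log2 expression made by the RMA method, so a difference of 1 is a doubling, and differences are sleep-deprived minus control. Differences were tested with limma over all genes, and adjusted p under 0.05 was the threshold. Of 49 members 5 passed (10.2%), 2 higher and 3 lower. Among all genes tested 8.50% passed, 3.88% higher and 4.62% lower, so the share of members that passed lay close to that of all genes. The median difference of the members was -0.012 and that of all genes -0.0048, and the median absolute difference was 0.078 against 0.077. At an unadjusted p under 0.05 there were 18 of 49 members, 12 higher and 6 lower. Of all 22180 genes 4293 (19.4%) were under that p, 1989 higher (8.97%) and 2304 lower. Groups did not overlap at 3 members (Psmb10 lower, Psmd4 and Psmd9 higher), beside 3.13% of all genes, 1.34% higher and 1.79% lower. Leaving out 1 sample changed the counts of members past the threshold most for control 7 and sleep-deprived sample 2. Without the former 4 members were higher and 3 lower, beside 3.81% and 4.25% of all genes, and without the latter 2 were higher and 5 lower, beside 3.78% and 4.75%. Among the brighter genes alone, 5 of 44 members were higher and 5 lower, beside 9.43% and 10.9% of those genes. Array medians lay between 3.443 and 3.491, and the number of arrays limits the precision.

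**Figure D1:**
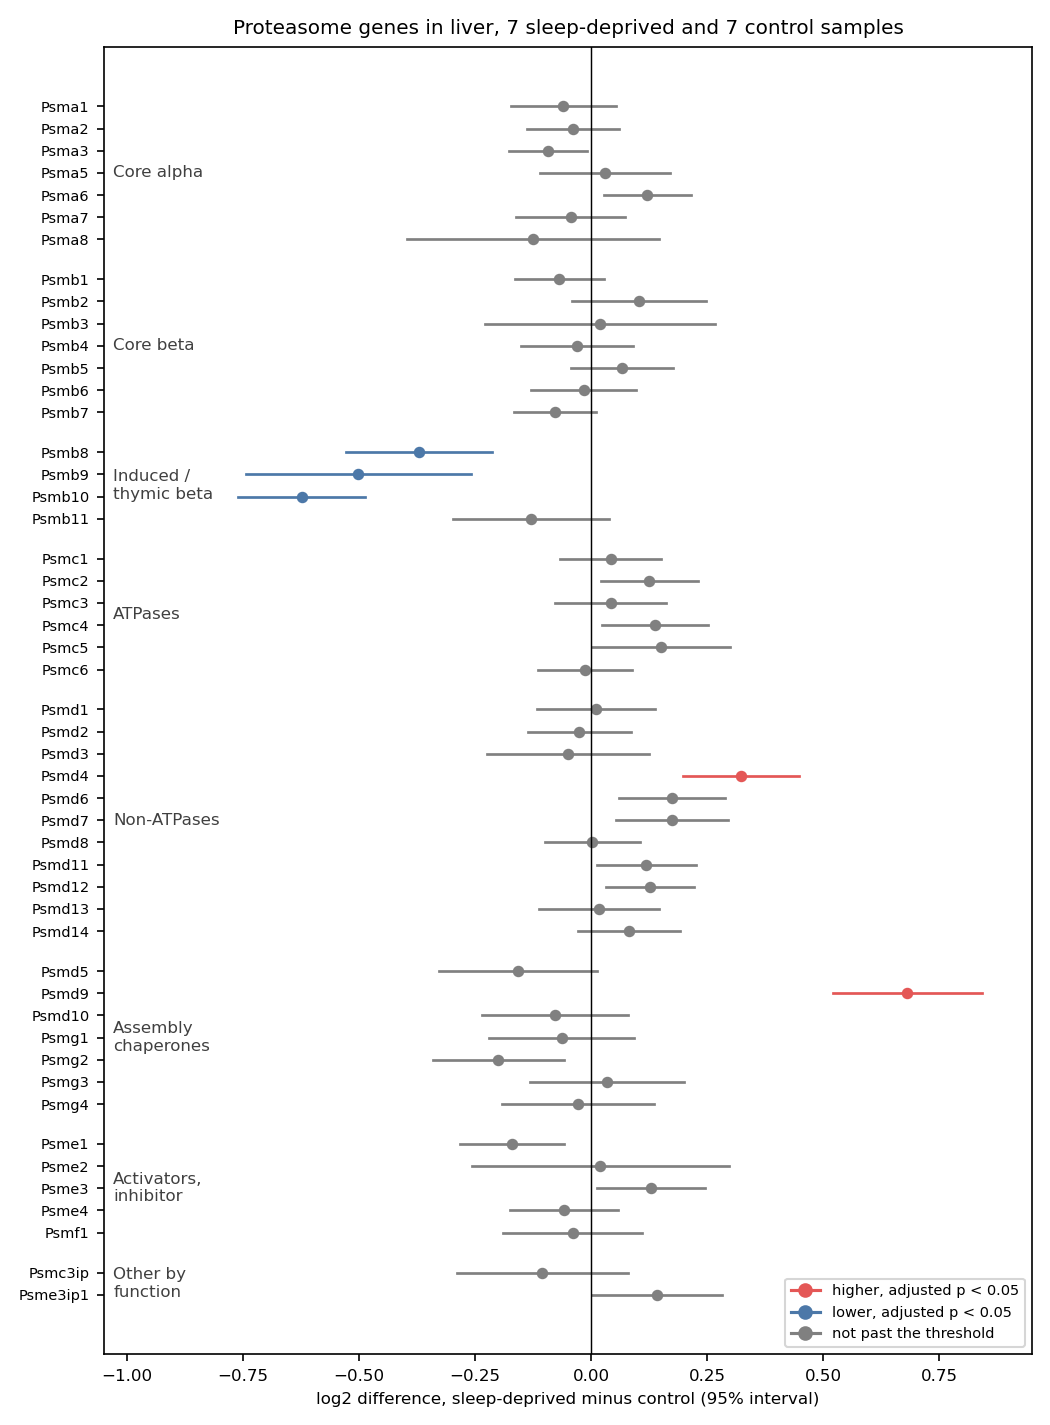
Differences of the 49 genes by role. The x axis is the log2 difference, sleep-deprived minus control, with points for limma's estimate and bars for its 95% interval (7 samples per group). The 3 induced subunits lie between -0.62 and -0.37, Psmd4 at 0.32 and Psmd9 at 0.68, and the other 44 genes lie between -0.20 and 0.17.

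The promoters of the 3 induced subunits are shown because all 3 genes were lower past the threshold. Each window runs from 250 bases before to 50 after the gene's start in RefSeq (GRCm38.p6), written 5′ to 3′ along the gene. Psmb8 is read from chr17:34197945-34198244 on the plus strand, Psmb9 from chr17:34187281-34187580 on the minus strand and Psmb10 from chr8:105938343-105938642 on the minus strand. Capitals mark a match to a CCAAT box in Psmb9 and to an E-box (CACGTG) in Psmb10, and the window of Psmb8 held none of the marked motifs.
Psmb8: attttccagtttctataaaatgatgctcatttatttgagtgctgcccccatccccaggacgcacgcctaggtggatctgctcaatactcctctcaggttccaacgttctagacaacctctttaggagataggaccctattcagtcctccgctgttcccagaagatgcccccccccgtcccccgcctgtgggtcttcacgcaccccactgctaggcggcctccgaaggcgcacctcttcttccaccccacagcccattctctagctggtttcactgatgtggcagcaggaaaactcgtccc
Psmb9: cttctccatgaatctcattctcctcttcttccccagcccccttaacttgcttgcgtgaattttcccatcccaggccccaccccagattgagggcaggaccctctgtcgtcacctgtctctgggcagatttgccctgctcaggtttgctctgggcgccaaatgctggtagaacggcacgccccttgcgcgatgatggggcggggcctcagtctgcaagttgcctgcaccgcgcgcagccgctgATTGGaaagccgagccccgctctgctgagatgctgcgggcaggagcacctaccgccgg
Psmb10: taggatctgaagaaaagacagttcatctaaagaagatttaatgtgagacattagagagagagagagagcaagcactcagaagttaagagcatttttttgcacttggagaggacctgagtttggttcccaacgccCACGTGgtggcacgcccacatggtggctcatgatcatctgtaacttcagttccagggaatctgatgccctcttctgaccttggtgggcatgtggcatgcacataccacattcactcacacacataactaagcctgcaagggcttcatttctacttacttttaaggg

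Psmb10, the induced subunit that replaces Psmb7, had the largest fall among the members (probe set 17512554). Its log2 level ran from 7.41 to 7.73 in controls, with a median of 7.55, and from 6.78 to 7.11 in sleep-deprived samples, with a median of 6.92. Every sleep-deprived sample was thus below every control. The difference was -0.62 ± 0.065 (moderated SE, n = 7 each), or 1.54-fold lower (limma, adjusted p = 4.01e-06).

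Psmb9, which replaces Psmb6 (probe set 17343789), ran from 5.50 to 6.23 with a median of 5.82 in controls, and from 5.09 to 5.71 with a median of 5.27 after sleep deprivation. The groups overlapped: 5 of 7 sleep-deprived samples were below all controls, and samples 2 and 3 (5.71 and 5.63) were the highest of their group, above control 7 (5.50) and control 14 (5.63). Its difference was -0.50 ± 0.12, or 1.42-fold lower (limma, adjusted p = 0.00811).

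Psmb8, which replaces Psmb5 (probe set 17336446), ran from 6.97 to 7.42 with a median of 7.20 in controls and from 6.66 to 6.99 with a median of 6.84 in the sleep-deprived group. Here 6 of 7 sleep-deprived samples lay below all controls, and sample 2 (6.99) was just above control 14 (6.97). The fall was -0.37 ± 0.075, or 1.29-fold (limma, adjusted p = 0.00306). Psmb11, the catalytic subunit of the thymus, was dim and its difference was -0.13 ± 0.080 (limma, adjusted p = 0.426).

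Averaged over the 3 induced subunits, the deviation from the control mean ran from -0.20 to 0.19 in controls and from -0.67 to -0.27 in sleep-deprived samples. Sleep-deprived sample 13 had the lowest average and sample 2 the highest of its group. Among controls, sample 14 was the lowest and sample 12 the highest.

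The constitutive counterparts did not pass the test. Psmb5, with the chymotrypsin-like site, ran from 7.21 to 7.41 in controls and from 7.21 to 7.49 in the sleep-deprived group. Its difference was 0.067 (95% interval -0.043 to 0.18). Psmb6, with the caspase-like site, ran from 7.83 to 8.18 and from 7.92 to 8.13, a difference of -0.016 (-0.13 to 0.097). Psmb7, with the trypsin-like site, ran from 8.99 to 9.20 and from 8.99 to 9.13, a difference of -0.078 (-0.17 to 0.011). The groups overlapped at all 3 genes, and limma's adjusted p was 0.568, 0.926 and 0.346.

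**Figure D2:**
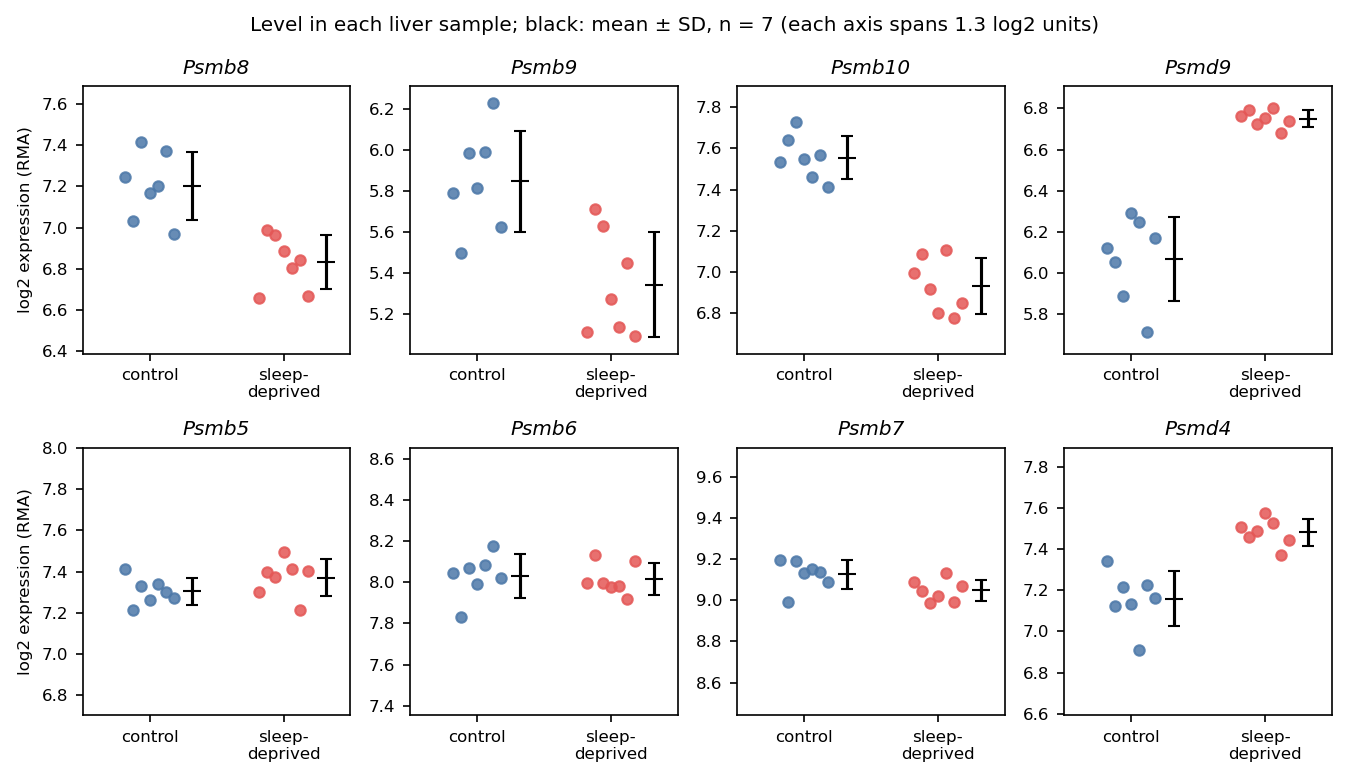
Log2 level of the 5 genes past the threshold and of Psmb5, Psmb6 and Psmb7 in every sample. Points are samples, black marks the mean ± SD (n = 7), and each y axis spans the same width. Psmb10, Psmd4 and Psmd9 show no overlap between groups, and the 3 constitutive subunits overlap.

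Whether an induced subunit changed otherwise than its constitutive counterpart was tested directly, on the log2 difference between both within each sample. For Psmb8 minus Psmb5, set to a mean of 0 in controls, controls ran from -0.20 to 0.19 and sleep-deprived samples from -0.63 to -0.27. The groups differed by -0.44 ± 0.075 (SE, exact permutation test, two-sided, p = 0.000583, 0.000874 adjusted over 3 pairs). For Psmb10 minus Psmb7, controls ran from -0.12 to 0.22 and sleep-deprived samples from -0.65 to -0.38. That difference was -0.55 ± 0.062 (exact permutation test, p = 0.000583, adjusted 0.000874). Sleep-deprived samples lay below all controls in 7 of 7 cases in both pairs, and this p is the smallest that 3432 assignments of the samples can give. Psmb9 minus Psmb6 differed by -0.49 ± 0.11, with 6 of 7 sleep-deprived samples below all controls (exact permutation test, p = 0.00117, adjusted 0.00117). The ratio of induced to constitutive signal changed by -26.1% for Psmb8, -28.6% for Psmb9 and -31.5% for Psmb10.

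**Figure D3:**
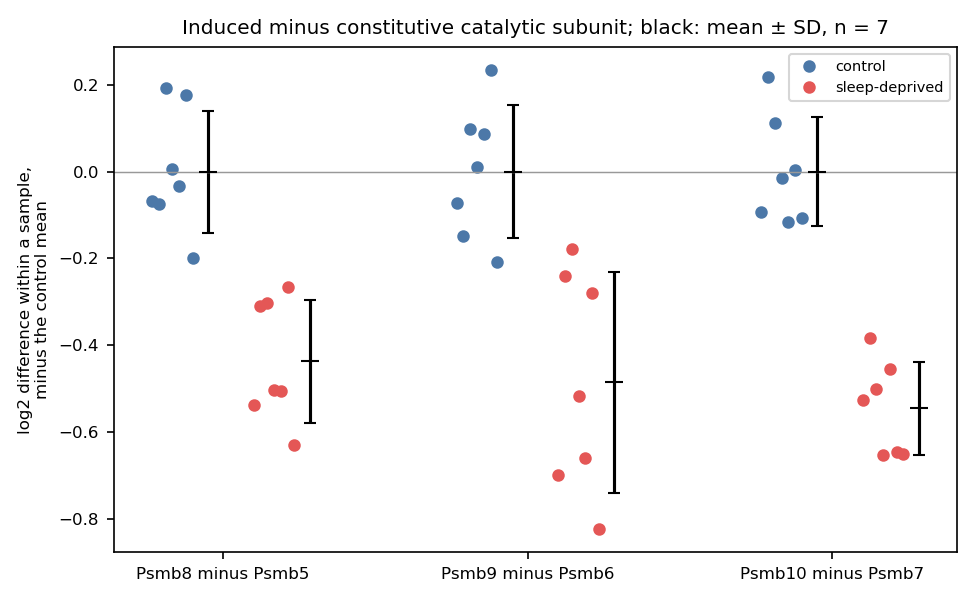
Log2 difference between the induced and the constitutive subunit within each sample, minus the control mean of that pair. Points are samples and black marks the mean ± SD (n = 7). Sleep-deprived samples lie below all controls for Psmb8 minus Psmb5 and Psmb10 minus Psmb7, and 6 of 7 do for Psmb9 minus Psmb6.

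Since the tissue was whole liver, fewer cells of a type and less RNA per cell cannot be told apart. Immune cells carry much of the immunoproteasome, and their markers were looked at beside its fall. Of 34 measured markers of T, B and NK cells, Kupffer cells, monocytes, neutrophils, dendritic cells and leukocytes in general, 0 were higher and 1 lower (limma). Differences of 12 markers were above 0 and of 22 below, with a median of -0.037 (-0.0048 over all genes). Among all genes 3.88% were higher and 4.62% lower. At an unadjusted p under 0.05 there were 3 of the 34, 1 higher and 2 lower, beside 19.4% of all genes. The marker past the threshold was Cd79a, a part of the B-cell receptor (-0.38 ± 0.091, limma, adjusted p = 0.0112), where the groups did not overlap. The other measured B-cell markers, Cd79b, Ighm and Ms4a1, were at -0.11 ± 0.081, -0.11 ± 0.11 and 0.0078 ± 0.076 and did not pass. Of 7 Kupffer cell markers 2 were above 0 and 5 below, and 0 passed. The mean log2 level of the 34 markers ran from 3.94 to 4.41 in controls and from 3.89 to 4.10 in sleep-deprived samples, and RMA values have no 0. Over the genes tested, array medians ran from 3.95 (control 7) to 4.04 (control 12), so many markers were dim. Cd79a and each measured dendritic cell marker were dimmer than the median gene, and each Kupffer cell marker was brighter. The pan-leukocyte gene Ptprc was at -0.075 ± 0.14. Control 12 held the highest average of immune markers (0.36 above the control mean) and of the induced subunits (0.19 above). The next highest averages of immune markers were those of sleep-deprived sample 13 (0.051) and control 7 (0.038). Their averages of the induced subunits were -0.67 and -0.14. Without control 12 the differences were -0.62 (Psmb10), -0.44 (Psmb9) and -0.34 (Psmb8). The part of immune cells in the fall was not tested. Of 6 hepatocyte markers 2 rose and 0 fell, beside 3.88% and 4.62% of all genes, and 5 were above 0. Apoa1, the main protein of high-density lipoprotein, rose by 0.12 ± 0.034 (limma, adjusted p = 0.0277), and Cps1, the first enzyme of the urea cycle, by 0.11 ± 0.034 (adjusted p = 0.0417). Alb, which codes for albumin, ran from 13.28 to 13.34 in controls and from 13.26 to 13.37 in sleep-deprived samples.

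Psmb9 and Psmb8 stand next to the peptide transporter genes Tap1 and Tap2 in the MHC region of chromosome 17, in the order Psmb9, Tap1, Psmb8, Tap2. The promoter windows of Psmb9 and Tap1, which lie on opposite strands, share 275 bases. Tap1, which carries proteasome-cut peptides into the endoplasmic reticulum, ran from 7.06 to 7.56 in controls and from 6.82 to 7.13 after sleep deprivation, and fell by 0.32 ± 0.072 (limma, adjusted p = 0.00630). Tap2 was at -0.20 ± 0.084 and did not pass (adjusted p = 0.171). Psmb10 lies on chromosome 8, and its neighbours Ctrl and Lcat were at 0.010 ± 0.079 and 0.066 ± 0.050 and did not pass (adjusted p = 0.968 and 0.545).

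Among 10 measured genes of MHC class I antigen presentation, 0 rose and 2 fell, with a median of -0.081 (3.88% of all genes rose and 4.62% fell). The 2 were Tap1 and Nlrc5, the transactivator of class I genes (-0.38 ± 0.12, limma, adjusted p = 0.0469). The call of Nlrc5 was lost in 8 of 14 fits that left out a sample, with adjusted p up to 0.104. The class I heavy chain H2-K1 and its light chain B2m were at -0.0039 ± 0.042 and -0.0036 ± 0.027. At an unadjusted p under 0.05 there were 5 of the 10, all lower, beside 19.4% of all genes, and 2 of the 10 were above 0. Of 14 genes of the interferon response 0 rose and 4 fell, beside 3.88% and 4.62% of all genes, with a median of -0.21. These were Gbp7 (-0.67 ± 0.088), Ifit1 (-0.57 ± 0.15), Irf1 (-0.43 ± 0.091), a transcription factor known to drive immunoproteasome genes, and Irf7 (-0.27 ± 0.070). The interferon-gamma receptor chains Ifngr1 and Ifngr2 were at -0.026 ± 0.088 and -0.18 ± 0.070 and did not pass. Above 0 were Irf8 (0.13 ± 0.079) and Jak1 (0.099 ± 0.051), which did not pass either. At an unadjusted p under 0.05 there were 8 of the 14, all lower, beside 19.4% of all genes.

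The core alpha and constitutive beta subunits together gave 0 of 14 calls (limma), beside 8.50% of all genes. At an unadjusted p under 0.05 there were 2, beside 19.4% of all genes. The median of the 14 was -0.035, with a range from -0.13 to 0.12. The alpha subunit Psma6 ran from 7.60 to 7.75 in controls and from 7.71 to 7.88 after sleep deprivation. All 7 sleep-deprived samples were above its control mean, at a difference of 0.12 ± 0.045 (limma, adjusted p = 0.116). Psma3 was at -0.093 ± 0.040 with all 7 below the control mean (adjusted p = 0.196). Psma8, an alpha subunit of the testis, was dim and at -0.13 ± 0.13. Psma5 was dim on both of its probe sets, and the dimmer of them differed by 0.50 ± 0.14 (limma with every probe set tested, adjusted p = 0.0280), while the one used here was at 0.030 ± 0.067.

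The regulatory particle had 17 measured subunits, of which 14 were above 0 and 1 passed, Psmd4 (8.50% of all genes passed). Their median was 0.081, and it was 0.093 with arrays centred on their median and 0.083 after a further quantile normalization. At an unadjusted p under 0.05 there were 8 of 17, all of them higher, where 8.97% of all genes were higher at that p. Averaged over the 17, the deviation from the control mean ran from -0.060 to 0.035 in controls and from -0.012 to 0.13 in sleep-deprived samples. In 6 of 7 sleep-deprived samples this average was above all controls, and sample 10 was the exception.

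Psmd9 and Psmd4, the members that rose, have the promoter windows below, shown because no other member passed in that direction. Psmd4 is read from chr3:95042565-95042864 on the minus strand and Psmd9 from chr5:123227940-123228239 on the plus strand. Capitals mark matches to the interferon-stimulated response element (GAAA, any 2 bases, GAAA) in both, and to an ETS element (CCGGAAG) and CCAAT boxes in Psmd4 and an E-box in Psmd9.
Psmd4: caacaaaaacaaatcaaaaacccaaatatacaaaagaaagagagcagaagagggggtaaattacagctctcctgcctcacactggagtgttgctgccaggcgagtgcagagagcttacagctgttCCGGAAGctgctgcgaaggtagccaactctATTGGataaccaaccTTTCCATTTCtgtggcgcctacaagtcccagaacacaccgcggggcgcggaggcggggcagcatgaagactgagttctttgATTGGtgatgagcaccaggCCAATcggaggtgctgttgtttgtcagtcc
Psmd9: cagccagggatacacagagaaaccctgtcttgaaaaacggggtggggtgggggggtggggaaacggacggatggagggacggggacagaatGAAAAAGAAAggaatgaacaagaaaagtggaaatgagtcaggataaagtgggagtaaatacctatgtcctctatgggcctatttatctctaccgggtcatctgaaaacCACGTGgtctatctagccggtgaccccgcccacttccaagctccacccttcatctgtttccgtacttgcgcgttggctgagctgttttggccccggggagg

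Psmd4 encodes a ubiquitin receptor of the regulatory particle (probe set 17407669). It ran from 6.91 to 7.34 with a median of 7.16 in controls and from 7.37 to 7.58 with a median of 7.49 in sleep-deprived samples. The lowest sleep-deprived sample was 10, still above the highest control, sample 4. The difference was 0.32 ± 0.060, or 1.25-fold (limma, adjusted p = 0.00135). Its neighbours on chromosome 3, Zfp687 and Pip5k1a, were at -0.053 ± 0.058 and 0.092 ± 0.064 and did not pass.

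The other subunits of the particle stayed under the threshold. Psmd6 ran from 7.15 to 7.39 in controls and from 7.34 to 7.51 after sleep deprivation, a difference of 0.17 ± 0.054 (limma, adjusted p = 0.0524). Psmd7, the partner of the deubiquitinase Psmd14, ran from 7.97 to 8.14 and from 8.01 to 8.40, a difference of 0.17 ± 0.058 (adjusted p = 0.0720). Sample 3 (8.01) was the 1 sleep-deprived sample inside the control range of Psmd7. Psmd12 differed by 0.13 ± 0.046 (adjusted p = 0.0982), Psmd11 by 0.12 ± 0.051 and Psmd14 itself by 0.081 ± 0.053. Of the ATPases, which unfold the substrate, Psmc5 (0.15 ± 0.071), Psmc4 (0.14 ± 0.055) and Psmc2 (0.12 ± 0.050) had the largest differences, with limma's adjusted p from 0.144 to 0.249. The large scaffold subunits Psmd1 and Psmd2 were at 0.010 ± 0.060 and -0.026 ± 0.053.

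**Figure D4:**
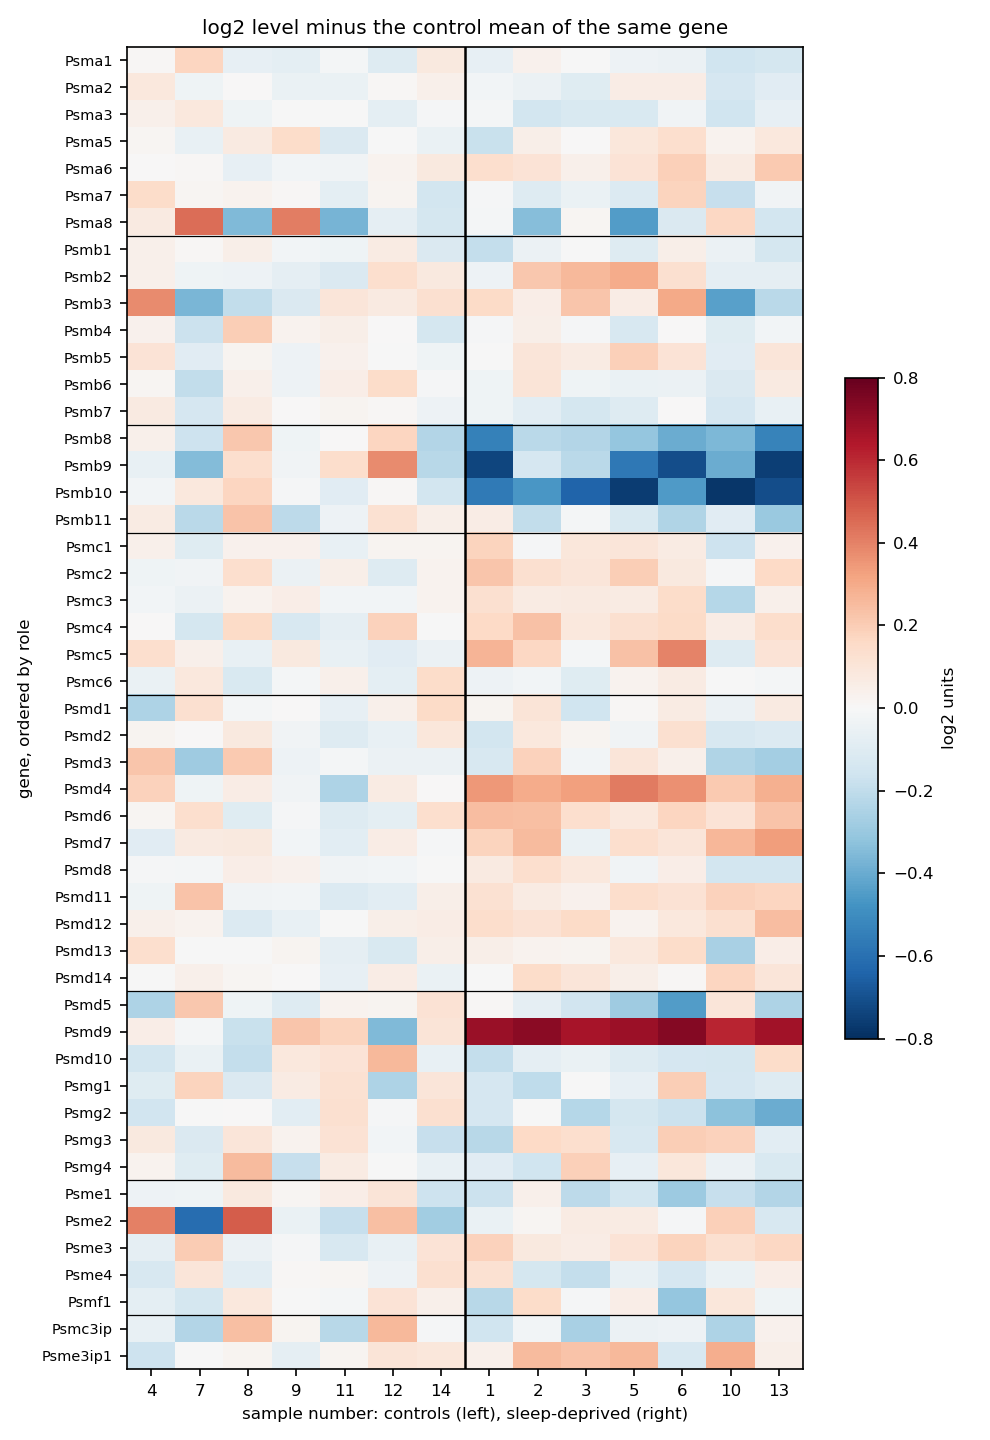
Log2 level of each gene in each sample minus that gene's control mean, on a colour scale from -0.8 to 0.8. Rows are genes ordered by role and columns are samples. The rows of Psmb8, Psmb9 and Psmb10 are blue and those of Psmd9 and Psmd4 red in the sleep-deprived samples, and the core rows stay pale apart from the dim Psma8 and from Psmb3.

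Psmd9, a chaperone that helps assemble the ATPase ring, had the largest rise (probe set 17442227). In controls it ran from 5.72 to 6.29 with a median of 6.12, and in sleep-deprived samples from 6.68 to 6.80 with a median of 6.75. The groups were far apart, and the spread was 0.20 in controls and 0.041 in sleep-deprived samples (SD, n = 7). Its difference was 0.68 ± 0.076, or 1.60-fold (limma, adjusted p = 7.84e-06). Next to it on chromosome 5, Hpd, an enzyme of tyrosine breakdown, rose by 0.12 ± 0.029 (adjusted p = 0.0154), and Wdr66 was at 0.057 ± 0.075 and did not pass.

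The other 6 assembly chaperones did not pass (limma), where 8.50% of all genes did. At an unadjusted p under 0.05 there was 1, beside 19.4% of all genes. Psmd5 and Psmd10, which also act on the ATPase ring, were at -0.16 ± 0.081 and -0.078 ± 0.075. Psmg2, which with Psmg1 guides the alpha ring, ran from 6.13 to 6.40 in controls and from 5.88 to 6.28 after sleep deprivation. All 7 sleep-deprived samples were below its control mean, with a difference of -0.20 ± 0.067 (limma, adjusted p = 0.0754). The other probe set of Psmg2 was dim (mean 2.01) and at -0.0022 ± 0.060 (limma with every probe set tested, adjusted p = 0.992). Psmg1 was at -0.064 ± 0.075, and the other pair of alpha ring chaperones, Psmg3 and Psmg4, at 0.034 ± 0.080 and -0.028 ± 0.078.

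Among activators and the inhibitor 0 of 5 passed (limma), where 8.50% of all genes did. At an unadjusted p under 0.05 there were 2, beside 19.4% of all genes. Psme1, a subunit of the interferon-induced activator, ran from 8.70 to 8.97 in controls and from 8.58 to 8.91 in sleep-deprived samples. Here 5 of 7 sleep-deprived samples were below all controls, and sample 2 (8.91) stood apart at the top of its group. The difference was -0.17 ± 0.054 (limma, adjusted p = 0.0566). It passed in 2 of 14 fits that left out a sample, without sleep-deprived sample 2 (-0.21, adjusted p = 0.0115) and without control 14 (-0.20, adjusted p = 0.0233), and the adjusted p was up to 0.117 in the others. Its partner subunit Psme2 was at 0.020 ± 0.13, with an SD of 0.40 among controls. The nuclear activator Psme3 was at 0.13 ± 0.056 (adjusted p = 0.198), Psme4 at -0.059 ± 0.056 and the inhibitor Psmf1 at -0.040 ± 0.072. The recombination factor Psmc3ip and the Psme3-binding protein Psme3ip1 match the symbols but are not subunits, and were at -0.11 ± 0.088 and 0.14 ± 0.067.

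Short motifs were counted on both strands in the promoter windows of 41 members (45 windows), out of 32851 windows of all genes, and matches of different motifs may overlap. Psma8, Psmb1, Psmb2, Psmb7, Psmc3, Psmd3, Psmd7 and Psmg2 had no entry. The ETS element CCGGAAG was in 17 member windows (37.8%) and in 8.86% of all windows. Of the members that moved, Psmd4 had it, and Psmb8, Psmb9, Psmb10 and Psmd9 did not. The CCAAT box was in 35.6% of member windows and 37.4% of all. The interferon-stimulated response element (GAAA, any 2 bases, GAAA) was in 11.1% and 3.44%. Psmd4 and Psmd9 had this element, as did Psmb3, Psme1 and Psmg4, and Psmb8, Psmb9 and Psmb10 did not. CACGTG was in 8.89% and 7.15%. The NF-kappaB element (GGG, any 2 bases, TTTCC) and the antioxidant response element TGANTCAGC were in 2.22% of member windows each, against 1.63% and 1.19% of all. The heat shock element (GAA, TTC and GAA, each 2 bases apart) and the glucocorticoid response element (AGAACA and TGTTCT, 3 bases apart) were in 0 member windows, with 0.603% and 0.00913% of all. A match is a description of letters and not of a bound site.

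Genes that work with the proteasome but lie outside the symbol rule were listed separately. Of 12 measured proteasome partners 2 rose and 0 fell, with a median of 0.024 (3.88% of all genes rose and 4.62% fell). The 2 partners were Ubfd1 at 0.30 ± 0.068 (limma, adjusted p = 0.00746), where the groups did not overlap, and Usp14, a deubiquitinase that binds the particle, at 0.19 ± 0.057 (adjusted p = 0.0469). The call of Usp14 was lost in 11 of 14 fits that left out a sample, with adjusted p up to 0.0997. Pomp, the core's maturation factor, was at -0.047 ± 0.067. Of 12 ubiquitin, shuttle and unfoldase genes 2 rose and 0 fell, beside the same shares of all genes, with a median of 0.056. Ubqln4, which carries ubiquitin-tagged proteins to the proteasome, rose by 0.35 ± 0.081 (adjusted p = 0.00796), and Ufd1, a cofactor of the unfoldase Vcp, by 0.23 ± 0.060 (adjusted p = 0.0182). Vcp itself was at 0.0063 ± 0.046.

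Transcription factors that drive proteasome genes, with their processing enzymes, gave 0 of 7 calls (limma), beside 8.50% of all genes. At an unadjusted p under 0.05 there was 1, beside 19.4% of all genes. Nfe2l1, which raises proteasome genes when degradation is impaired, ran from 7.19 to 7.34 in controls and from 7.30 to 7.50 after sleep deprivation. All 7 sleep-deprived samples were above its control mean, at a difference of 0.11 ± 0.048 (limma, adjusted p = 0.188). Nfe2l2, the factor of antioxidant genes, was at -0.12 ± 0.069 (adjusted p = 0.396).

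**Figure D5:**
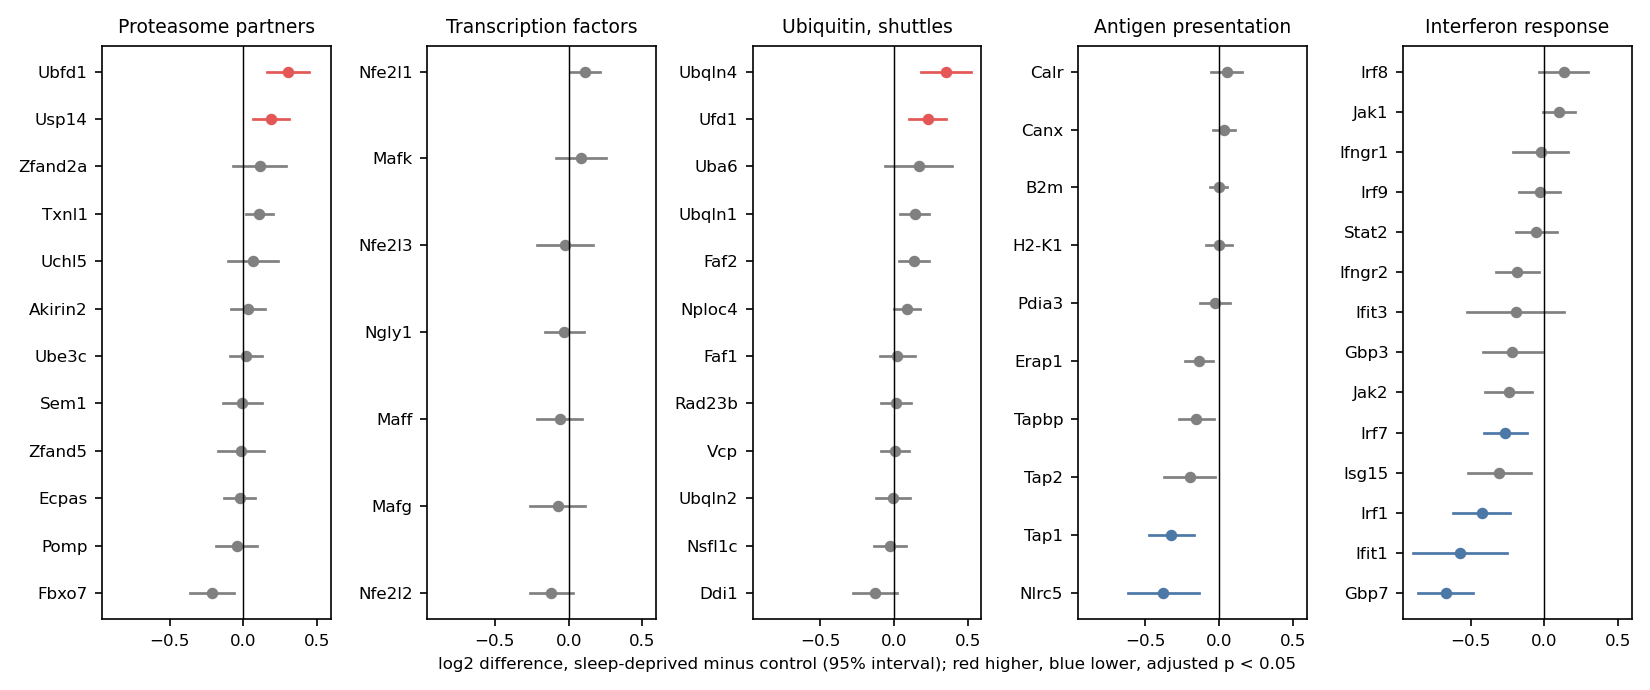
Differences of the measured genes of 5 related lists. Each x axis is the log2 difference, sleep-deprived minus control, with limma's 95% interval (7 samples per group). Red genes are higher and blue genes lower past the threshold: Ubfd1, Usp14, Ubqln4 and Ufd1 are higher, and Tap1, Nlrc5, Irf7, Irf1, Ifit1 and Gbp7 lower.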

How the data were processed

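Total RNA of liver (100 ng per sample) was labelled with the Affymetrix WT PLUS kit, per the labels' protocols. The authors deposited log2 values for each probe set. RMA, named in the submitters' processing notes, corrects background, normalizes quantiles and summarises probes. Its version is not given in the sources used here. RMA compresses differences of dim genes, and depth does not apply to arrays. Of 41345 probe sets, 23521 had 1 gene symbol, 1814 several and 16010 were not listed. Psma4 lies on probe sets with several symbols and is not analysed here.

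Groups came from the titles, whose sample numbers are not shared between groups, so no pairing was made. Differences were tested over all 22180 genes, without a filter, with R 4.3.3 and limma 3.58.1 (two-sided, eBayes with trend, Benjamini-Hochberg adjustment). SEs of single genes are limma's moderated ones. The subunit pairs were tested with scipy 1.17.1. The steps were tested on simulated data. Named were all members past the threshold, the catalytic subunits, activators and chaperones whatever their result, and up to 4 genes per related list, by smallest adjusted p. Nfe2l1, Nfe2l2, Pomp, Irf1 and Tap1 were named whatever their result. Some members under the threshold were added after their values were seen. The listed genes H2-K1, B2m, Tap2, Ifngr1, Ifngr2 and Vcp were also named outside these rules. The members and lists were chosen with earlier results of these data known. The result of 1 motif is not reported here. Alternatives are given in the closing section.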

Additional observations from a re-analysis of the deposited data

Results flagged for a closer look

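In 5 of 104 groups of 7 samples (98 of the members and 6 of the subunit pairs) 1 sample stood far from the others, by a test that chance alone meets in about 1 of 20 groups. All 5 were sleep-deprived samples. Sample 10 was low in the ATPase Psmc3, at a log2 level of 6.77 with the next at 7.04, and in the regulatory subunit Psmd13, at 6.76 with the next at 7.04. Sample 2 was high in the activator subunit Psme1, at 8.91 with the next at 8.72. Sample 13 was high in the chaperone Psmd10, at 5.79 with the next at 5.59. Sample 1 was low in the dim alpha subunit Psma5, at 2.80 with the next at 2.98.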

How the results depend on the processing

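The 5 members past the threshold kept their direction and their call in 23 of 23 alternatives each: array weights, robust or trend-free eBayes, brighter genes alone, other uses of a gene's probe sets, median centring, a covariate of sample number, a further quantile normalization, and leaving out each of the 14 samples. Psmb10 ran from -0.68 to -0.59, Psmb9 from -0.56 to -0.44, Psmb8 from -0.41 to -0.33, Psmd4 from 0.28 to 0.35 and Psmd9 from 0.62 to 0.72. The 3 subunit pairs kept theirs under a further quantile normalization, with the mean of probe sets and without any 1 sample. Brighter genes alone, which leave out 5 members and test fewer genes, gave 5 members higher (9.43% of those genes) and 5 lower (10.9%). Leaving out a sample gave 2 to 4 members higher and 3 to 5 lower, with 4 higher without control 7 and 5 lower without sleep-deprived sample 2. Of the other 44 members 6 passed under some alternative (Psmd6, Psmd7, Psmd11, Psmd12, Psme1 and Psmg2). Irf7 and Ifit1 each missed the threshold in 1 of 23 alternatives (adjusted p = 0.0706 and 0.0980).

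Without a call in any setting, 10 members changed sign. With the sample number as a covariate these were Psmb3 (-0.075), Psmc6 (0.010), Psmd13 (-0.023), Psmd8 (-0.052) and Psme2 (-0.029), and the cause was not tested. Leaving out 1 sample gave -0.042 to 0.094 for Psmb3, -0.058 to 0.0024 for Psmb4, -0.049 to 0.0085 for Psmb6, -0.033 to 0.012 for Psmc6, -0.031 to 0.038 for Psmd1, -0.0042 to 0.063 for Psmd13, -0.019 to 0.028 for Psmd8, -0.082 to 0.10 for Psme2, -0.071 to 0.0054 for Psmf1 and -0.065 to 0.014 for Psmg4. No paired analysis was possible because the sample numbers are not shared between groups.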

Other observations

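Markers of other liver cells are given as values, where 3.88% of all genes were higher and 4.62% lower. Of 5 markers of sinusoidal endothelial cells 2 rose and 0 fell (limma; 3 at an unadjusted p under 0.05, of which 1 was lower): the hyaluronan receptor Lyve1 by 1.13 ± 0.18 (adjusted p = 0.000422) and the adhesion molecule Pecam1 by 0.29 ± 0.080 (adjusted p = 0.0243). Kdr, a receptor of vascular endothelial growth factor in the same list, was at -0.18 ± 0.067 with 7 of 7 sleep-deprived samples below the control mean, and did not pass (adjusted p = 0.114). Of 4 cholangiocyte markers 1 rose, the transcription factor Sox9 (0.56 ± 0.16, limma, adjusted p = 0.0359). Sox9 ran from 5.11 to 5.95 in controls and from 5.87 to 7.11 in sleep-deprived samples, with a median of 5.98 in the latter. Krt19, Krt7 and Epcam were at 0.11 ± 0.13, 0.061 ± 0.12 and -0.074 ± 0.089 and did not pass. Of 5 stellate cell markers 0 passed (limma), with 1 at an unadjusted p under 0.05.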
